A study of Mus musculus with 6 samples.

Results

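The scavenger receptor genes described here are Marco, Msr1, Cd36, Scarb1, Stab1, Cd163, Mrc1, Olr1 and Cd14, a list of 9 genes taken by name from the 55401 genes of the table. All 9 were found, each on 1 row, and all 9 were among the 12766 genes tested, those whose FPKM reached 1 or more in 3 or more of the 6 libraries. FPKM divides a gene's fragments by its length and by the depth of the library, so it can be compared between genes. The libraries came from hepatic stellate cells, the pericytes of the liver, isolated from S100a16+/- mice, heterozygous for a deficiency of S100a16, or from WT mice. All mice were of the C57BL/6J strain, and all cells were cultured for 7 days in medium with serum (FBS) to activate them. There were 3 libraries of each genotype, replicates 1 to 3. The labels give no age, do not say how the allele was made, and do not say whether a library is 1 animal or a pool, so p-values measure the spread between these libraries.

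Scavenger receptors are cell-surface proteins that bind and take up modified lipoproteins, bacteria, dying cells and waste proteins, and they share function more than ancestry. In the liver they are known from Kupffer cells, the resident macrophages, and some of them also from the sinusoidal endothelium, which clears waste from blood. Most of them are endocytic, while Cd14 encodes a protein without a membrane-spanning part that hands lipopolysaccharide to the toll-like receptor TLR4.

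The RNA in these cultures was not that of stellate cells alone. The 12 macrophage markers, with none of the 9 genes among them, summed to an FPKM of 10223 to 14510 in the S100a16+/- libraries and 8822 to 9345 in the WT libraries. The lysozyme gene Lyz2 alone made up 5460 to 10057 of that sum in S100a16+/- and 4377 to 4595 in WT. Of the 12 markers 7 had a log2 change above 0 over all 6 libraries and 5 below, so the higher sum does not stand for all of them. The 13 endothelial markers summed to 980.25 to 2120 in S100a16+/- and 1790 to 1924 in WT, and the 14 stellate markers to 111 to 874 and 745 to 842. The myofibroblast gene Acta2 was abundant, with 48.0 to 489 FPKM in S100a16+/- and 388 to 437 in WT, but the retinoid-storage gene Lrat, which defines quiescent stellate cells, had at most 0.0517 FPKM in any library. In bulk RNA, fewer cells of a type and less RNA per cell cannot be told apart.

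Library totals were 61979103 to 70896338 counts in S100a16+/- and 65880770 to 76291481 in WT. The targeted gene, S100a16, had 18, 17.7 and 30.03 FPKM in S100a16+/- replicates 1 to 3 and 57.7, 58.8 and 56.8 in the WT libraries. A single library, S100a16+/- replicate 3, was unlike the other libraries of its group. Over the 12766 tested genes, its Pearson correlation of log2(FPKM + 1) was 0.930 with S100a16+/- replicate 1 and 0.929 with replicate 2, which correlated with each other at 0.987. With the WT libraries it was 0.946 to 0.949, against 0.949 to 0.957 for S100a16+/- replicates 1 and 2 with WT, so by this measure it was nearer to WT than to its own group. It had 32.2 FPKM of the X-inactivation transcript Xist, against at most 0.0323 in every other library, and 0.0102 FPKM of the Y-linked gene Ddx3y, against at least 12.1. By these genes it read as female and every other library as male, so sex was not balanced between the groups. The labels give no sex, and these genes were chosen after their values were seen. Whether sex bears on the other differences of this library was not tested. S100a16+/- replicate 3 also held the least Acta2 and the most of the hepatocyte gene Alb, with 242 FPKM of Alb where S100a16+/- replicates 1 and 2 had 4.81 and 5.52 and WT had 42.9 to 64.6. Results are therefore given with and without it.

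Over all 6 libraries 3 of the 9 genes rose in S100a16+/- and 1 fell (edgeR quasi-likelihood, Benjamini-Hochberg over all tested genes). The genes that rose were Msr1, Cd14 and Marco, and the gene that fell was Scarb1. Of all tested genes 2.85% rose and 1.61% fell, 4.46% in all. The 9 genes had a median log2 change of 0.65, with 5 above 0 and 4 below, where the median of all tested genes was 0.00. The groups did not overlap in FPKM for 6 of the 9, with 4 higher and 2 lower in S100a16+/-, as for 31.4% of all tested genes (12.5% higher and 18.9% lower). Without S100a16+/- replicate 3 all 9 passed, 5 higher and 4 lower, and in that fit 15.8% of all tested genes were higher and 16.4% lower, 32.2% in all. The FPKM of all 9 then lay apart between genotypes, as for 59.96% of all tested genes. That fit rests on S100a16+/- replicates 1 and 2, and the labels do not say whether these are separate animals. All 4 calls over 6 libraries were lost when any one of the other 5 libraries was left out: the edgeR adjusted p was then 0.0529 to 0.1 for Msr1, 0.0887 to 0.142 for Cd14, 0.122 to 0.177 for Marco and 0.112 to 0.162 for Scarb1.

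**Figure D1:**
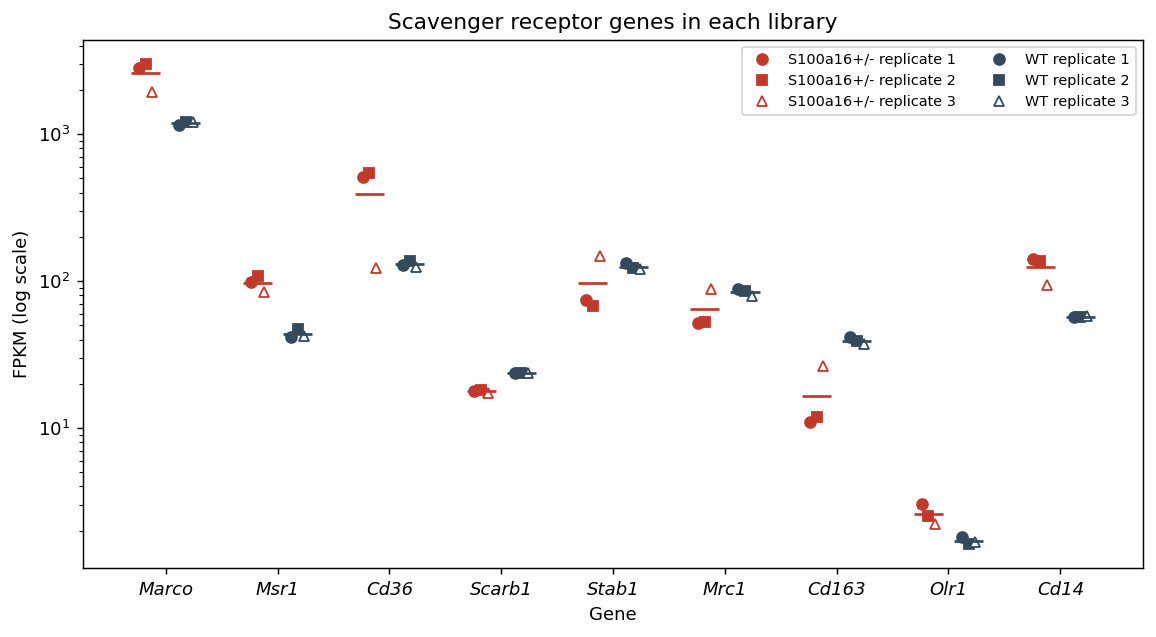
FPKM on a log scale for the 9 genes in each library, with S100a16+/- left of WT; points are libraries, open triangles are replicates 3, and bars are group means. Marco stands highest in both genotypes. The open S100a16+/- triangle lies away from its group in Cd36, Stab1, Mrc1 and Cd163, and less far, below it, in Marco and Cd14.

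By level, Marco led in both genotypes by a wide margin. It made up 75.7%, 76.2% and 76.9% of the summed FPKM of the 9 genes in S100a16+/- replicates 1 to 3, and 69.3%, 70.3% and 71.5% in WT replicates 1 to 3, so its share was higher in every S100a16+/- library. Summed FPKM of the 9 genes was 3736, 3950 and 2511 in S100a16+/-, against 1677, 1724 and 1703 in WT. In S100a16+/- the order by mean FPKM was Marco, Cd36, Cd14, Msr1, Stab1, Mrc1, Scarb1, Cd163 and Olr1. There the ranges of neighbours from Cd36 to Mrc1 overlapped, as did those of Scarb1 and Cd163. Without replicate 3 the order was the same and no neighbours overlapped. In WT the order was Marco, Cd36, Stab1, Mrc1, Cd14, Msr1, Cd163, Scarb1 and Olr1, and only the ranges of Cd36 and Stab1 overlapped. Cd14 and Msr1 thus stood above Stab1 and Mrc1 in the S100a16+/- means and below them in WT, and Cd163 stood below Scarb1 in the S100a16+/- means and above it in WT.

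The sequences before the RefSeq start of these genes are shown for the 4 of 6 that matched a PU.1, AP-1 or C/EBP motif. RefSeq promoter windows on GRCm38.p6 were found by symbol for 6 of the 9 genes, and the 250 bases before the RefSeq start were searched on both strands. The RefSeq start lies 52905 bases inside the Cd36 gene of the table, and within 22 bases of the table's start for the other 5 genes. The marked motifs were the core site of PU.1 (GAGGAA), the macrophage lineage factor encoded by Spi1; the AP-1 site (TGANTCA); and a C/EBP site (TTGCNNAA). Capitals mark their matches, and a PU.1 core on the other strand reads TTCCTC. By the sign of the log2 change Marco and Olr1 were on the higher side in S100a16+/-, Stab1 and Mrc1 on the lower side. Of these only Marco passed over all 6 libraries.

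Marco, chr1:120505025-120505274, minus strand: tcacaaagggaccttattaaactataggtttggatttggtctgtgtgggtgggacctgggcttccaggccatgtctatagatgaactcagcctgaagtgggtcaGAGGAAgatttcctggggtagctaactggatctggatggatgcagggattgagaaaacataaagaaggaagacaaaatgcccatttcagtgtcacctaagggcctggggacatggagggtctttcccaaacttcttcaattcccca

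Olr1, chr6:129507166-129507415, minus strand: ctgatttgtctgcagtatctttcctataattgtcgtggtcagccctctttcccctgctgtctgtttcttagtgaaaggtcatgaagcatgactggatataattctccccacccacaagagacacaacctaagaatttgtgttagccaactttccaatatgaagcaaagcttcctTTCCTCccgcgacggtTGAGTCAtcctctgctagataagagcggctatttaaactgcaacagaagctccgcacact

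Stab1, chr14:31168642-31168891, minus strand: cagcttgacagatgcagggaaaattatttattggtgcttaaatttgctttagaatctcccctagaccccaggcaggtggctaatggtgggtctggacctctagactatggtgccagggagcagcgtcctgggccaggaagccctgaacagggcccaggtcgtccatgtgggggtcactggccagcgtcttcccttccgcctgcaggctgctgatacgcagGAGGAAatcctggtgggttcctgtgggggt

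Mrc1, chr2:14229164-14229413, plus strand: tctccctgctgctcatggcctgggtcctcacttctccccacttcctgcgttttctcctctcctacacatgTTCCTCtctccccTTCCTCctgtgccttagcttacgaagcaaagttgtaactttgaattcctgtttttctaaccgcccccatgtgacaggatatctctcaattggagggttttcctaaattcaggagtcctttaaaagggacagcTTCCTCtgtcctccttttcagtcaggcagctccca

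The PU.1 core occurred in Marco, 146 bases before the start, in Olr1 at 76 bases, in Stab1 at 30 bases and in Mrc1 at 180, 167 and 35 bases. Of all 32851 promoter windows of this length 23.3% held it. The AP-1 site occurred in Olr1 alone, at 60 bases, and in 6.75% of all windows. The C/EBP site was in none of the 6, and in 9.56% of all windows. Of 3 further motifs searched, the NF-kappa B motif (GGG and CC with any 5 bases between) was in 45.8% of all windows. It occurred 3 times in Marco, 2 times in Cd163 and 1 time each in Cd36 and Mrc1. In Marco 2 of the matches, at 30 and 29 bases, overlap on opposite strands. The E-box CACGTG (6.02% of all windows) and the TATA box TATAAA (12.4%) had no match in the 6. Of the genes that held the PU.1 core only Marco passed over all 6 libraries. Olr1, Stab1 and Mrc1 did not (edgeR adjusted p = 0.0799, 0.582 and 0.404). Scarb1, the gene that passed as lower, had no window. These windows therefore cannot show whether the core goes with a direction, and a match is a description of letters, not a bound site.

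The class A receptors Marco and Msr1 both rose. Marco encodes a trimeric, collagen-like receptor for bacteria and particles (ENSMUSG00000026390, chromosome 1, 120474538 to 120505024, minus strand). Marco reached 2829, 3010 and 1930 FPKM in S100a16+/- and 1162, 1211 and 1218 FPKM in WT. Every S100a16+/- library was above every WT library, with replicate 3 the lowest of its group. Mean FPKM was 2589 ± 578 for S100a16+/- and 1197 ± 30.5 for WT (SD, n = 3 per genotype), and the log2 change was 1.17 (SE 0.19, edgeR adjusted p = 0.0376). Leaving out S100a16+/- replicate 3 gave 1.35 (SE 0.04, edgeR adjusted p = 5.25e-05).

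Msr1 encodes the macrophage scavenger receptor that takes up oxidized and acetylated low-density lipoprotein (ENSMUSG00000025044, chromosome 8, 39581685 to 39642673, minus strand). Its FPKM was 97.8, 109 and 83.8 in S100a16+/- and 41.4, 47.5 and 42.0 in WT. The groups lay apart, and S100a16+/- replicate 3, at 192% of the WT mean, was nearer to replicates 1 and 2 (224% and 251%) than in Marco or Cd14. The log2 change was 1.20 (SE 0.13, edgeR adjusted p = 0.0141), and 1.31 without S100a16+/- replicate 3 (SE 0.08, edgeR adjusted p = 2.69e-04). The FPKM ratio of Marco to Msr1 was 28.9, 27.5 and 23 in S100a16+/- and 28, 25.5 and 29 in WT, so the ratio lay in the WT range in S100a16+/- replicates 1 and 2 and below it in replicate 3.

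Cd14 rose to a like extent (ENSMUSG00000051439, chromosome 18, 36725067 to 36726798, minus strand). Its FPKM was 140.47, 138 and 94.5 in S100a16+/- and 57.0, 57.2 and 57.6 in WT. The WT libraries were almost level and all lay below the S100a16+/- libraries. The log2 change was 1.17 (SE 0.17, edgeR adjusted p = 0.0271), and 1.34 without S100a16+/- replicate 3 (SE 0.03, edgeR adjusted p = 4.12e-05).

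Among the class B receptors, Scarb1 fell and Cd36 split the S100a16+/- libraries. Scarb1 encodes the receptor for high-density lipoprotein, which moves cholesteryl esters across the membrane (ENSMUSG00000037936, chromosome 5, 125277087 to 125341094, minus strand). Its FPKM was 17.9, 18.1 and 17.3 in S100a16+/- and 23.8, 23.5 and 23.6 in WT. Spread within each group was small, replicate 3 sat with the others, and the groups lay apart. Mean FPKM in S100a16+/- came to 75.1% of that in WT, and the log2 change was -0.36 (SE 0.06, edgeR adjusted p = 0.0331), and -0.33 without S100a16+/- replicate 3 (edgeR adjusted p = 0.00155). With no filter on low values Scarb1 and Marco missed the threshold (edgeR adjusted p = 0.0710 and 0.0561).

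Cd36 encodes a receptor for oxidized lipoproteins and a carrier of long-chain fatty acids (ENSMUSG00000002944, chromosome 5, 17781690 to 17888801, minus strand). Its FPKM was 511, 540.44 and 122 in S100a16+/- and 129, 136 and 124 in WT. Relative to the WT mean, S100a16+/- replicates 1 and 2 stood at 395% and 417%, and replicate 3 stood at 94.2%, below all 3 WT libraries, so the groups overlapped. Its log2 change, 1.65 with an SE of 0.55, missed the threshold (edgeR adjusted p = 0.158). Leaving out S100a16+/- replicate 3 gave 2.08 (SE 0.05, edgeR adjusted p = 4.12e-05), the largest of the 9 in that fit. Over 6 libraries a DESeq2 Wald test called Cd36 (adjusted p = 0.0105), with Cd163 (adjusted p = 0.00602) and Olr1 (adjusted p = 0.00271); it called 14.8% of all tested genes.

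Stab1 and Mrc1, which encode endocytic receptors found on both sinusoidal endothelium and macrophages, did not pass over 6 libraries. Stab1 encodes stabilin-1, a receptor for acetylated lipoprotein and matrix fragments (ENSMUSG00000042286, chromosome 14, 31139013 to 31168641, minus strand). Its FPKM was 74.9, 67.8 and 147 in S100a16+/- and 133, 122 and 120.19 in WT. S100a16+/- replicates 1 and 2 lay below WT and replicate 3 above it. The log2 change was -0.33 (SE 0.30, edgeR adjusted p = 0.582), and -0.75 without S100a16+/- replicate 3 (SE 0.07, edgeR adjusted p = 9.71e-04). Its end overlaps Nt5dc2 on the other strand, whose counts came to 4.16% of those of Stab1.

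Mrc1 encodes the mannose receptor CD206, which binds mannose-tipped glycoproteins and collagen (ENSMUSG00000026712, chromosome 2, 14229392 to 14332057, plus strand). Its FPKM was 51.8, 52.7 and 87.7 in S100a16+/- and 88.0, 85.9 and 78.9 in WT, with replicate 3 inside the WT range. The log2 change was -0.35 (SE 0.21, edgeR adjusted p = 0.404), and -0.63 without S100a16+/- replicate 3 (SE 0.06, edgeR adjusted p = 0.00108). The FPKM ratio of Stab1 to Mrc1 ran from 1.29 to 1.68 in S100a16+/- and from 1.42 to 1.52 in WT.

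Cd163 encodes the receptor for haemoglobin bound to haptoglobin (ENSMUSG00000008845, chromosome 6, 124304656 to 124330527, plus strand). Its FPKM was 11, 11.9 and 26.3 in S100a16+/- and 41.4, 39.0 and 37.4 in WT. All S100a16+/- libraries were below all WT libraries, at 28%, 30.3% and 66.9% of the WT mean. Its log2 change, -1.22 with an SE of 0.34, missed the threshold (edgeR adjusted p = 0.112), and it was -1.72 without S100a16+/- replicate 3 (SE 0.07, edgeR adjusted p = 8.90e-05). The FPKM ratio of Marco to Cd163 was 258, 254 and 73.5 in S100a16+/- and 28.1, 31.1 and 32.6 in WT.

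Olr1 encodes LOX-1, a lectin-like receptor for oxidized low-density lipoprotein (ENSMUSG00000030162, chromosome 6, 129485244 to 129507165, minus strand), and was the lowest of the 9. Its FPKM was 3.03, 2.50 and 2.21 in S100a16+/- and 1.80, 1.62 and 1.67 in WT, from 541 to 853 counts and 472 to 492 counts. The groups lay apart. The log2 change was 0.65 (SE 0.16, edgeR adjusted p = 0.0799), and 0.77 without S100a16+/- replicate 3 (SE 0.12, edgeR adjusted p = 0.00762).

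**Figure D2:**
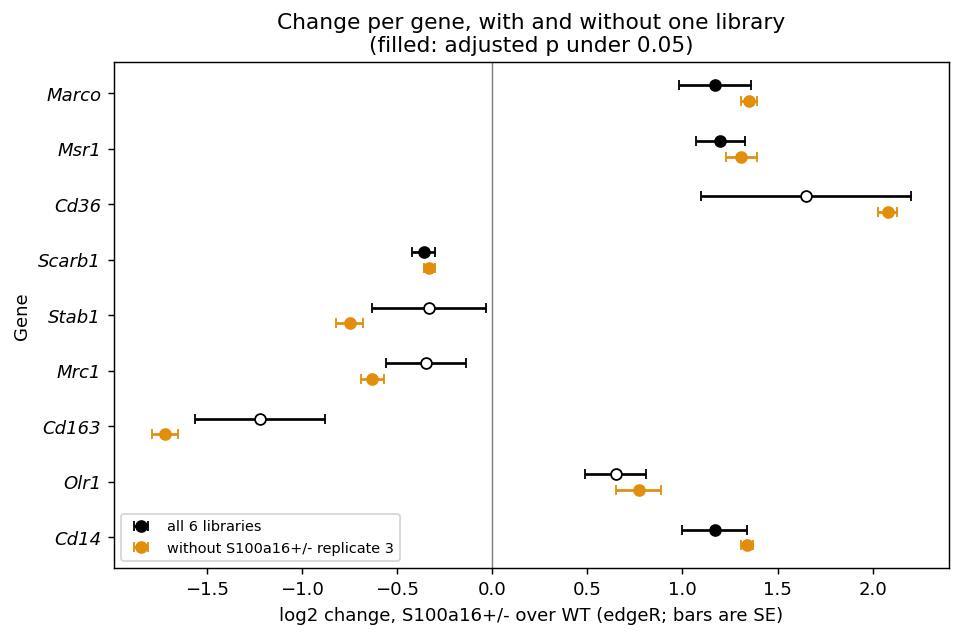
Log2 change of each gene, S100a16+/- over WT, from edgeR on all 6 libraries (black) and without S100a16+/- replicate 3 (orange); bars are SE and filled points passed at an adjusted p under 0.05. With 6 libraries Marco, Msr1, Cd14 and Scarb1 passed; the widest SE are those of Cd36, at 0.55, and Cd163, at 0.34.

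Because the libraries hold several cell types, each gene was also set against marker genes of the same library. Of the 12 macrophage markers 1 rose, Adgre1 (log2 change 0.46, edgeR adjusted p = 0.0497), and none fell; their median log2 change was 0.06. The Adgre1 call was lost with library totals, with limma, with no filter on FPKM, and without any one of the other 5 libraries (S100a16+/- replicate 3 aside; edgeR adjusted p 0.163 to 0.229). The markers did not move as one. Lyz2, the lysozyme gene, had 9230, 10057 and 5460 FPKM in S100a16+/- and 4420, 4595 and 4377 in WT, while the complement gene C1qa had 836, 881 and 1152 and 1243, 1239 and 1150. In the fit lacking S100a16+/- replicate 3, 5 of these markers passed as higher (Lyz2 among them) and 4 as lower (C1qa among them). The shares of all tested genes there were 15.8% and 16.4%, against 2.85% and 1.61% over all 6 libraries. No macrophage marker was at a count of 0 in all libraries. Summed FPKM of the 7 dendritic cell markers was 63.3, 64.6 and 12.5 in S100a16+/- and 12.6, 13.7 and 12.3 in WT, with Cd209a at a count of 0 in all libraries. Most of that sum was Itgax, with 59.2, 60.7 and 6.82 FPKM in S100a16+/- and 8.41, 9.72 and 8.17 in WT, while the dendritic cell factor gene Zbtb46 had 2.04, 1.66 and 2.51 in S100a16+/- and 2.16, 2.24 and 2.24 in WT. The other tested marker, Clec9a, had 1.93, 2.19 and 3.06 in S100a16+/- and 1.88, 1.56 and 1.7 in WT. Its groups lay apart without passing (log2 change 0.53, edgeR adjusted p = 0.194). Neutrophil markers summed to 34.1, 37.9 and 30.7 in S100a16+/- and 20.1, 21.2 and 18.2 in WT, with S100a9, Ly6g and Retnlg at 0, and 1 of the 3 tested rose (S100a8, log2 change 3.28, edgeR adjusted p = 0.0386; 0.0932 to 0.163 without any one of the other 5 libraries). Lymphocyte markers summed to at most 2.97 in S100a16+/- and 3.13 in WT, and cholangiocyte markers to 7.22 and 5.68. Hepatocyte markers summed to 58.1, 61.0 and 506 in S100a16+/- and 98.1 to 133 in WT. Of these Ass1 made up 49.5, 52.1 and 15.4 in S100a16+/- and 27 to 28.9 in WT; without S100a16+/- replicate 3 it was higher and the other 6 tested markers were lower, with a list median log2 change of -3.27. The part of these cell types in the levels of the 9 genes was not tested.

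After the mean log2 CPM (counts scaled to library size) of the 12 macrophage markers was subtracted, Marco stood 1.19, 1.17 and 0.70 above its WT mean in S100a16+/- replicates 1 to 3. The same difference was 1.12, 1.17 and 0.96 for Msr1 and 1.25, 1.11 and 0.73 for Cd14. Scarb1 stood at -0.45, -0.54 and -0.44 and Cd163 at -1.88, -1.88 and -0.57. In all of these the S100a16+/- and WT libraries lay apart, as they did for Olr1, while for Cd36, Stab1 and Mrc1 they overlapped. The same genes lay apart, and the same overlapped, by FPKM without subtraction, where 31.4% of all tested genes lay apart. That share was not counted after subtraction. The differences for Marco, Msr1 and Cd14, taken over group means, were 1.02, 1.08 and 1.03, beside log2 changes of 1.17, 1.20 and 1.17. The 12 markers moved both ways, 7 above 0 and 5 below, with Lyz2 at a log2 change of 0.94 and C1qa at -0.29. Their mean therefore moved little, and subtracting it could not change these genes much. Whether the macrophage share differed was not tested.

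Most endothelial markers were lower in S100a16+/- replicates 1 and 2, and replicate 3 was mixed. Eng, Oit3 and Clec4g were not among those lower in replicates 1 and 2. In replicate 3 Lyve1, Emcn, Tie1, Oit3 and Clec4g lay below every WT library. Clec4g, too low to be tested, had 3.24, 3.14 and 0.468 FPKM in S100a16+/- and 0.995, 0.963 and 0.576 in WT. None of the 12 tested passed by edgeR over 6 libraries (2 at an unadjusted p under 0.05, and 1 called by DESeq2), where their median log2 change was -0.48, and 10 were lower without S100a16+/- replicate 3, with a median of -1.04. For all 12766 tested genes, 2807 were at an unadjusted edgeR p under 0.05 and DESeq2 called 14.8%. Without S100a16+/- replicate 3, 16.4% of all tested genes were lower. The vascular cadherin gene Cdh5 had 290.27, 283 and 930.11 FPKM in S100a16+/- and 698, 628 and 657 in WT. Stab2, the sinusoidal endothelial relative of Stab1, had 49.9, 43.1 and 184 in S100a16+/- and 202, 176 and 178 in WT. Less the endothelial markers, Stab1 stood at 0.27, 0.17 and 0.10 and Mrc1 at 0.30, 0.38 and -0.07 relative to their WT means, against -0.79, -1.04 and 0.25 and -0.75, -0.83 and 0.07 less the macrophage markers. Cd163 was below WT on either scale, at -0.83, -0.67 and -0.71 less the endothelial markers. Scarb1, which fell as a level, stood at 0.60, 0.67 and -0.58 on this scale, so its S100a16+/- libraries lay on both sides of WT. Marco stood at 2.24, 2.39 and 0.56, above WT in every S100a16+/- library. The markers themselves had a mean log2 FPKM ratio to WT of -1.01, -1.06 and 0.13 in S100a16+/- replicates 1 to 3. Subtracting them therefore raised any gene in replicates 1 and 2, Scarb1 and Marco included. The part of endothelial cells in these levels was not tested.

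**Figure D3:**
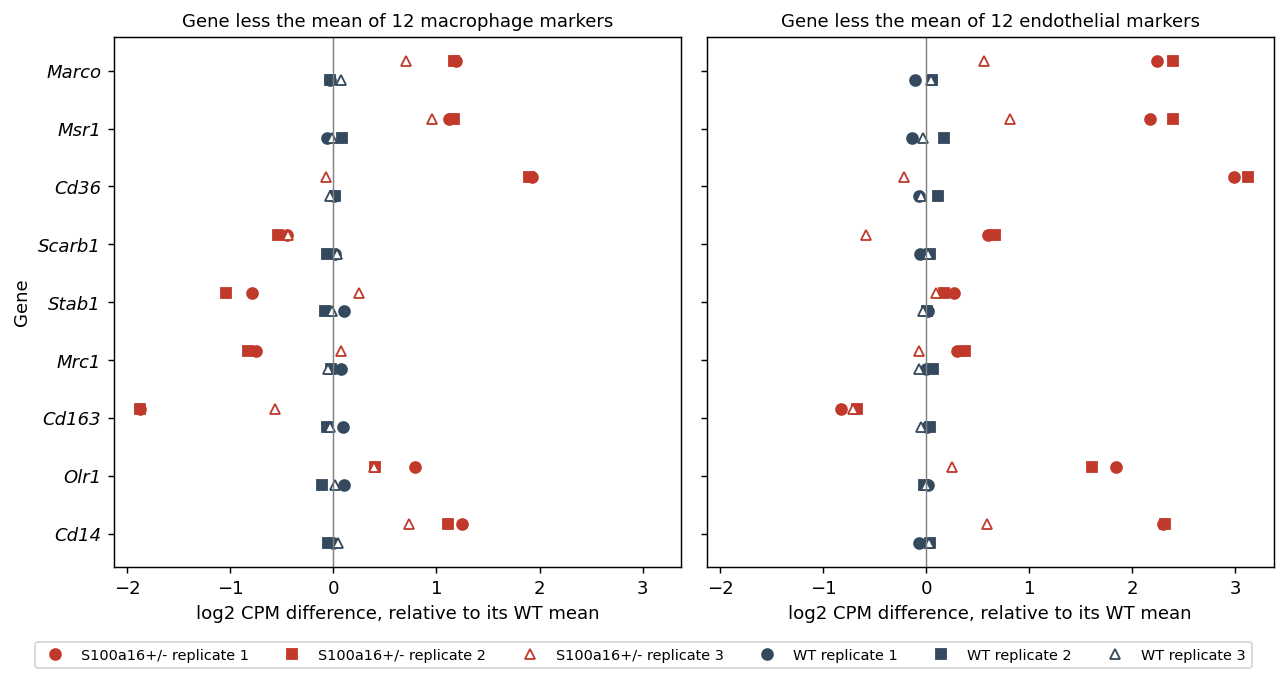
For each gene and library, log2 CPM less the mean log2 CPM of 12 macrophage markers (left) or 12 endothelial markers (right), set to 0 at the WT mean; red is S100a16+/-, dark blue WT, and open triangles are replicates 3. Left, Marco, Msr1 and Cd14 lie above WT in all 3 S100a16+/- libraries and Scarb1 and Cd163 below; right, Stab1 lies between 0.10 and 0.27 above its WT mean.

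The genes with the most similar profiles over the 6 libraries were found by the root mean square difference of log2 CPM after each gene was centred on its mean, among 11281 tested genes with assigned names. For Marco the nearest was Cd14, at 0.041, then Ptger2 at 0.056 and Ell2 at 0.061, where the profile of Marco itself had a root mean square of 0.608. Marco was in turn the nearest gene to Cd14. Msr1 was nearest to Sowahc (0.072), Mmp10 (0.092) and Igsf6 (0.096), and stood 0.118 from Marco. Cd36 was nearest to Gpnmb (0.112), Alas1 (0.118) and Cyp1a1 (0.144), and was 0.519 or more from every other gene of the 9. Stab1 was nearest to Cd93 (0.027), Hlx (0.035) and Il1rap (0.049), with Mrc1 at 0.116. Mrc1 was nearest to Arrdc2 (0.022), Rassf2 (0.031) and Prag1 (0.034). Cd163 was nearest to Tlr9 (0.069), Sp5 (0.075) and Hc (0.089), and its closest gene of the 9 was Stab1, at 0.467. Scarb1 was nearest to Srsf3 (0.020), Ctnnbip1 (0.026) and Slc30a1 (0.029), and Olr1 to Pstpip1 (0.050), Dusp23 (0.072) and Ttc39c (0.074). Among the 9 genes, Marco, Cd14 and Msr1 thus lay nearest to each other, as did Stab1 and Mrc1, as a description over libraries of which 1 stood apart. Genes outside the 9 were nearer to Msr1, Stab1 and Mrc1 than any of the 9 was. How many of the 11281 genes lay as near was not counted.

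Of 15 tested genes for other scavenger and endocytic receptors, 2 rose and none fell, with a median log2 change of 0.38. The shares of all tested genes were 2.85% and 1.61%. Colec12, a class A receptor with a collectin domain, had 26, 28 and 25.2 FPKM in S100a16+/- and 17.1, 17.2 and 17.3 in WT (log2 change 0.67, SE 0.07, edgeR adjusted p = 0.0128). Cd5l, a secreted scavenger receptor protein of macrophages, had 949, 1004 and 1225 in S100a16+/- and 586, 606 and 559 in WT (log2 change 0.91, SE 0.12, edgeR adjusted p = 0.0206). In both genes replicate 3 lay with its own group. Both calls were lost without any one of the other 5 libraries, with an edgeR adjusted p of 0.0529 to 0.0952 for Colec12 and 0.0619 to 0.13 for Cd5l. Without S100a16+/- replicate 3, 10 of the 15 were higher and 1, Stab2, was lower, beside 15.8% and 16.4% of all tested genes.

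Genes that handle what these receptors take up rose in part, where 2.85% of all tested genes rose and 1.61% fell. Of 17 tested genes for cholesterol and fatty acid handling 3 rose and none fell, with a median of 0.20. They were the fatty acid binding protein gene Fabp5 (log2 change 1.23, SE 0.06, edgeR adjusted p = 0.00211), the lysosomal lipase gene Lipa (log2 change 0.79, SE 0.15, edgeR adjusted p = 0.0472) and the lysosomal cholesterol exporter gene Npc1 (log2 change 0.64, SE 0.12, edgeR adjusted p = 0.0437). Fabp5 stayed called with any one library left out (highest edgeR adjusted p 0.0328). Lipa and Npc1 did not, with an edgeR adjusted p of 0.142 to 0.208 and 0.0887 to 0.194 without any one of the libraries other than S100a16+/- replicate 3, and limma on log2(FPKM + 1) did not call them (adjusted p = 0.0526 and 0.0713). Of 10 genes for haem handling 2 rose and none fell, with a median of 0.97: the haem oxygenase gene Hmox1 (log2 change 1.04, SE 0.17, edgeR adjusted p = 0.0340) and the ferritin gene Ftl1 (log2 change 0.87, SE 0.14, edgeR adjusted p = 0.0331). Hmox1 had 1081, 1129 and 774 FPKM in S100a16+/- and 497, 519.98 and 485 in WT, while Cd163, the receptor that brings haemoglobin in, was lower in each S100a16+/- library without passing the test. The calls of Hmox1 and Ftl1 were lost in the same left-out fits (edgeR adjusted p 0.116 to 0.173 and 0.112 to 0.181).

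Among 12 genes of the lipopolysaccharide receptor complex and its adaptors 2 rose and none fell, with a median of 0.24. They were the adaptor genes Ticam2 (log2 change 0.55, SE 0.10, edgeR adjusted p = 0.0430) and Myd88 (log2 change 0.35, SE 0.06, edgeR adjusted p = 0.0437). Both calls were lost in those left-out fits (edgeR adjusted p 0.141 to 0.19 and 0.143 to 0.184), and no gene of this list was called by limma or with no filter on FPKM. The receptor gene Tlr4 differed within both groups, with 13.4, 15.3 and 2.25 FPKM in S100a16+/- and 1.91, 2.66 and 13 in WT. None of 14 genes for the clearance of apoptotic cells passed by edgeR, where their median was -0.17; the smallest p values were those of Timd4, at a log2 change of -0.47 with an edgeR adjusted p of 0.280, and Itgb5, at -0.32 with an edgeR adjusted p of 0.332. None of 13 genes for macrophage regulators passed either, with a median of 0.26. Spi1 stood at a log2 change of 0.63 with an edgeR adjusted p of 0.0913, and Csf2rb, a chain of the receptors for granulocyte-macrophage colony-stimulating factor and related cytokines, at 1.10 with an edgeR adjusted p of 0.0983. At an unadjusted p under 0.05 the counts were 0 of the clearance genes and 4 of the regulators, and DESeq2 called 0 and 3. Among all 12766 tested genes 2807 were at an unadjusted edgeR p under 0.05, and DESeq2 called 14.8%. After adjustment edgeR called 2.85% of them higher and 1.61% lower. The macrophage growth factor receptor gene Csf1r was at a log2 change near that of all genes, 0.09 (SE 0.08, edgeR adjusted p = 0.560). Without S100a16+/- replicate 3 the higher and lower counts were 9 and 4 for cholesterol and fatty acids, 7 and 1 for haem, 4 and 1 for the lipopolysaccharide complex, 1 and 5 for apoptotic cell clearance and 7 and 2 for macrophage regulators. In that fit 15.8% of all tested genes were higher and 16.4% lower.

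**Figure D4:**
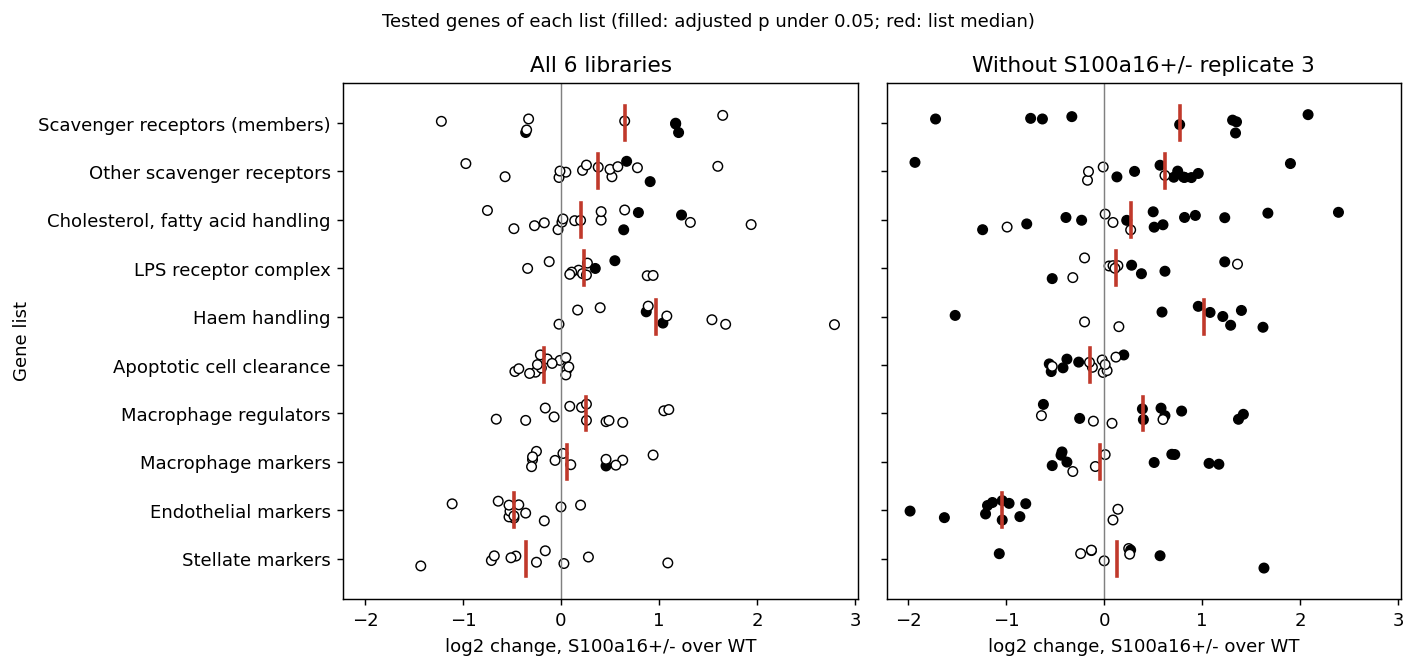
Log2 change, S100a16+/- over WT, of every tested gene in 10 lists, over all 6 libraries (left) and without S100a16+/- replicate 3 (right); filled points passed at an adjusted p under 0.05 and red lines are list medians. The 9 scavenger receptor genes lie on both sides of 0, with medians of 0.65 and 0.77, and the endothelial markers move to a median of -1.04 on the right.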

How the data were processed

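Poly(A) RNA of cultured hepatic stellate cells was sequenced as stranded libraries with unique molecular identifiers, per the labels' protocols. The authors deposited 1 table of whole-number counts and FPKM values per gene for 6 libraries, per the file headers; a count of 0 carries an FPKM of 0.0001. Tools listed, with no roles, in the submitters' processing notes are StringTie 1.3.4d, HISAT2 2.0.4, cutadapt 1.9, edgeR, DESeq2 and UMI-tools. The labels and headers read here do not name a genome build; coordinates are those of the table, and those of all 9 genes are the same in GENCODE M21 (GRCm38), as for 86.4% of its gene IDs. Whether counting used strand is not stated, so reads of Stab1 and Nt5dc2 may not be separated.

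Counts of genes whose FPKM reached 1 or more in 3 or more of 6 libraries were tested with edgeR 4.0.16 in R 4.3.3 (TMM scaling, quasi-likelihood, genotype as the only term, two-sided, Benjamini-Hochberg adjustment over all 12766 genes, called under 0.05). The SE was derived from the log2 change and the root of its F statistic. Levels are the authors' FPKM; log2 CPM used a prior count of 2. Alternatives were DESeq2 1.42.0, other size factors, limma 3.58.1 on log2(FPKM + 1, 0.1 or 5), other filters, a replicate block, and leaving out each library. The script was tested on simulated data. The depth was 61979103 to 76291481 counts per library, and the lowest of the 9 genes, Olr1, had at least 472 counts in each.

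The 9 genes and the gene lists were chosen with earlier results of these data known. Genes named beside them were the called genes of each list with the smallest p (at most 4, or 2 if no gene passed), abundant cell type markers, and the 3 genes with the most similar profile to each of the 9. Others were named as comparisons after their values were seen: Stab2, Tlr4, Csf1r, Oit3, Clec4g, Ass1, Lyve1, Xist, Ddx3y, Lrat and the markers at a count of 0. Promoter windows came from RefSeq (GRCm38.p6).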

Additional observations from a re-analysis of the deposited data

How the results depend on the processing

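The direction of all 9 scavenger receptor genes was the same under every alternative run that tested them. Olr1, with a mean FPKM of 2.14, was not in the fit limited to a mean FPKM of at least 5. Over all genes edgeR called 570, and 4 of the 9. A DESeq2 Wald test called 1888 genes and 7 of the 9. Without a filter on FPKM edgeR called 243 genes and 2 of the 9, Msr1 and Cd14. With a replicate block edgeR called 0 genes and 0 of the 9 (2207 genes at an unadjusted p under 0.05). Deviations from the group means of same-numbered libraries had correlations of -0.133, 0.023 and -0.066, and those of differently numbered libraries ran from -0.069 to 0.124. The labels give no pairing. With S100a16+/- replicate 3 standing apart, these values cannot show whether same-numbered libraries were handled together. Leaving out 1 library gave 32 to 4115 called genes and 0 to 9 of the 9; the highest values are without S100a16+/- replicate 3, and the others were 80 and 57 without S100a16+/- replicates 1 and 2 and 42, 35 and 32 without WT replicates 1 to 3. The cause was not tested. With library totals as the scaling 282 genes were higher and 252 lower, against 364 and 206 with TMM, and the same number of the 9 passed.

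Other named genes changed sign as follows. Leaving out 1 library gave a log2 change of -0.62 to 0.27 for Acta2, -0.90 to 0.00 for Col1a1, -2.10 to 2.34 for Ttr, -3.35 to 1.20 for Alb and -0.01 to 0.21 for Csf3r, with the sign turned without S100a16+/- replicate 3. It gave -0.03 to 0.09 for Krt19, turned without S100a16+/- replicate 1, and -0.19 to 0.08 for Zbtb46, turned without S100a16+/- replicate 2. With the replicate block the log2 change was -0.70 for Ttr and -2.04 for Alb. With limma on log2(FPKM + 1, 0.1 or 5) it was -1.40, -1.53 and -1.01 for Alb and -0.01, -0.01 and -0.00 for Krt19, and -0.29 for Ttr with 0.1. Krt19 was at -0.02 with library totals.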
